A study of Mus musculus with 12 samples.

Results

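Lcn2, the serum amyloids and their fellow acute phase proteins form the group described here: the 10 genes Lcn2, Saa1, Saa2, Saa3, Saa4, Apcs, Crp, Hp, Hpx and Itih4, found by gene symbol among the 18560 genes of a mouse liver expression table. The table holds 12 libraries of polyadenylated RNA from the liver of mice aged 12 months, 3 in each of 4 groups: wild-type males (WT), OXR1A-/- males, wild-type females and OXR1A-/- females. The OXR1A-/- animals lack OXR1A, a protein form made from the oxidation resistance gene Oxr1. The labels give no strain, treatment, deletion strategy or tissue-specific driver, and they do not say whether the 3 libraries of a group are separate animals. The p-values therefore rest on the spread between libraries, and that spread may be technical. Levels are in FPKM (fragments scaled to transcript length and library size), as the authors deposited them.

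The acute phase response is the liver's change in secreted proteins after infection, injury or inflammation. Interleukin 6, acting through STAT3, and interleukin 1 and tumour necrosis factor, acting through NF-kB, reach the hepatocyte, where C/EBP factors add to their effect, and genes of positive acute phase proteins such as serum amyloid A are switched on while those of negative ones such as albumin decline. In mice, Saa1 and Saa2 make the circulating serum amyloid A that travels on high-density lipoprotein, whereas Saa3 is known as the form made largely outside the hepatocyte, for example by macrophages and fat cells. Lcn2 makes lipocalin 2, which binds bacterial siderophores and so withholds iron. The pentraxin Apcs (serum amyloid P) is the main acute phase pentraxin of the mouse, where Crp (C-reactive protein) responds little. Hp makes haptoglobin and Hpx makes hemopexin, the plasma carriers of free hemoglobin and heme. Itih4 makes an inter-alpha-trypsin inhibitor heavy chain.

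The serum amyloid A genes lie together on chromosome 7 of mouse build GRCm38: Saa3 at 46711998 to 46719615, Saa4 at 46727992 to 46732603, Saa1 at 46740497 to 46743181 and Saa2 at 46751833 to 46754313. Hpx lies elsewhere on the same chromosome (105591611 to 105600116), Lcn2 on chromosome 2 (32384637 to 32387739), Crp and Apcs on chromosome 1 (172698056 to 172699966 and 172893961 to 172895054), Hp on chromosome 8 (109575128 to 109579172) and Itih4 on chromosome 14 (30886476 to 30901986). The transcripts of Saa1 (609 bases) and Saa2 (606 bases) are 93.9% identical, and 74 of the 560 stretches of 50 bases in the Saa1 transcript (13.2%) occur unchanged in Saa2, so reads there cannot be assigned to either gene and the separate values of the pair are uncertain. Saa3 is 64.3% identical to Saa1 and shares 9 such stretches (1.6%), and Saa4 shares none.

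The 250 bases before a RefSeq transcript start of 4 genes are shown because their levels define the patterns described further on: Lcn2, with the largest change, Saa1 and Saa2, which moved as a pair, and Saa3, which did not follow them in every group. They come from RefSeq on GRCm38.p6, which gave a promoter for 9 of the 10 genes, all but Hp, and run 5′ to 3′ on the strand of the gene. For Saa1 and Saa3 the span given above reaches farther upstream than the transcript start used in that table, so the Saa3 stretch lies inside that span and the Saa1 stretch in part. Capitals mark matches, on either strand, to the letters TTNNGNAA (C/EBP) or TTCNNNGAA (STAT), where N is any base, or to GGG and CC with 5 bases of any kind between them (NF-kB).
Lcn2, chr2:32387740-32387989, minus strand: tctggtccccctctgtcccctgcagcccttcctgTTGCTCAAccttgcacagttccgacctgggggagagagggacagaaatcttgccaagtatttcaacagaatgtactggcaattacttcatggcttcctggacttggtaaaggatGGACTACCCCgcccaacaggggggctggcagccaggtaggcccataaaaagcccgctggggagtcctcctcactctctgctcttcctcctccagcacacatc
Saa1, chr7:46742981-46743230, minus strand: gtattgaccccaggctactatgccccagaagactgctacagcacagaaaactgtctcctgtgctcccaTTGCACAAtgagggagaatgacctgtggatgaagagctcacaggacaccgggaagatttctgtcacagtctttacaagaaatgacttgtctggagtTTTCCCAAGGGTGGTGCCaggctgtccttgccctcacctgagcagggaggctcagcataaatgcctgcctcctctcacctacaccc
Saa2, chr7:46751583-46751832, plus strand: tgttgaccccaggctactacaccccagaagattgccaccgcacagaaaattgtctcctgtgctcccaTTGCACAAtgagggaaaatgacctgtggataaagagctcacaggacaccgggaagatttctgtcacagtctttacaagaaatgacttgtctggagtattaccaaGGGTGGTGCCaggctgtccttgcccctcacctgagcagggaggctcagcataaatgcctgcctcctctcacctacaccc
Saa3, chr7:46715677-46715926, minus strand: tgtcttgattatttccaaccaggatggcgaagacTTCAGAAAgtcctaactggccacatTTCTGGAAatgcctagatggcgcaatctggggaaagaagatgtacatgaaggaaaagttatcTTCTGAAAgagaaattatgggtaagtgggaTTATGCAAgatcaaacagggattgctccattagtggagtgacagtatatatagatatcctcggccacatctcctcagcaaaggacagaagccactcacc
The Saa1 and Saa2 promoters were 94.8% identical, and both hold the C/EBP match TTGCACAA and the NF-kB match GGGTGGTGCC at nearly the same place. Saa1 has a further C/EBP match, TTTCCCAA, which abuts its NF-kB match. Saa3 holds 4 C/EBP matches and neither of the other motifs, and Lcn2 holds 1 C/EBP and 1 NF-kB match. Of the 9 promoters, 7 held the C/EBP letters, 6 the NF-kB letters and 2, those of Apcs and Itih4, the STAT letters. These motifs are common: in 32851 promoters of the same length, 36.8% held the C/EBP letters, 45.8% the NF-kB letters and 7.0% the STAT letters. A match is a description of letters, not of a bound site.

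The libraries hold an estimated 20300000 to 29700000 fragments, read from the step that 1 fragment makes in genes of low value. All 10 genes passed the filter for testing, and the smallest estimated number of fragments behind any of their values was 54, for Saa3, which gives a counting error of 13.6%. The next smallest was 110 for Lcn2 (9.53%). Oxr1 itself was listed at 17.9 ± 5.61 FPKM (SD, n = 3) in wild-type and 23.4 ± 1.48 in OXR1A-/- males, and at 18.5 ± 1.85 and 20.2 ± 0.642 in the females. The table sums all transcripts of Oxr1, so these levels do not check the loss of OXR1A. In wild-type female 1 and OXR1A-/- female 1, 4 Y-linked genes summed to 2.8 and 1.65 FPKM, against at most 0.13 in the other females, and OXR1A-/- male 3 had 0.82 FPKM of Xist against at most 0.08 in the other males. Calls of the 10 genes that are lost without these 3 libraries with other-sex RNA are named as such. Log2 changes were taken after adding 1 to the FPKM, so they come out too small where a gene is low. A fold is the ratio of 2 group means of FPKM, and adjusted p-values come from limma, two-sided, with Benjamini-Hochberg adjustment over 11514 genes. A gene was called at an adjusted p under 0.05.

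**Figure D1:**
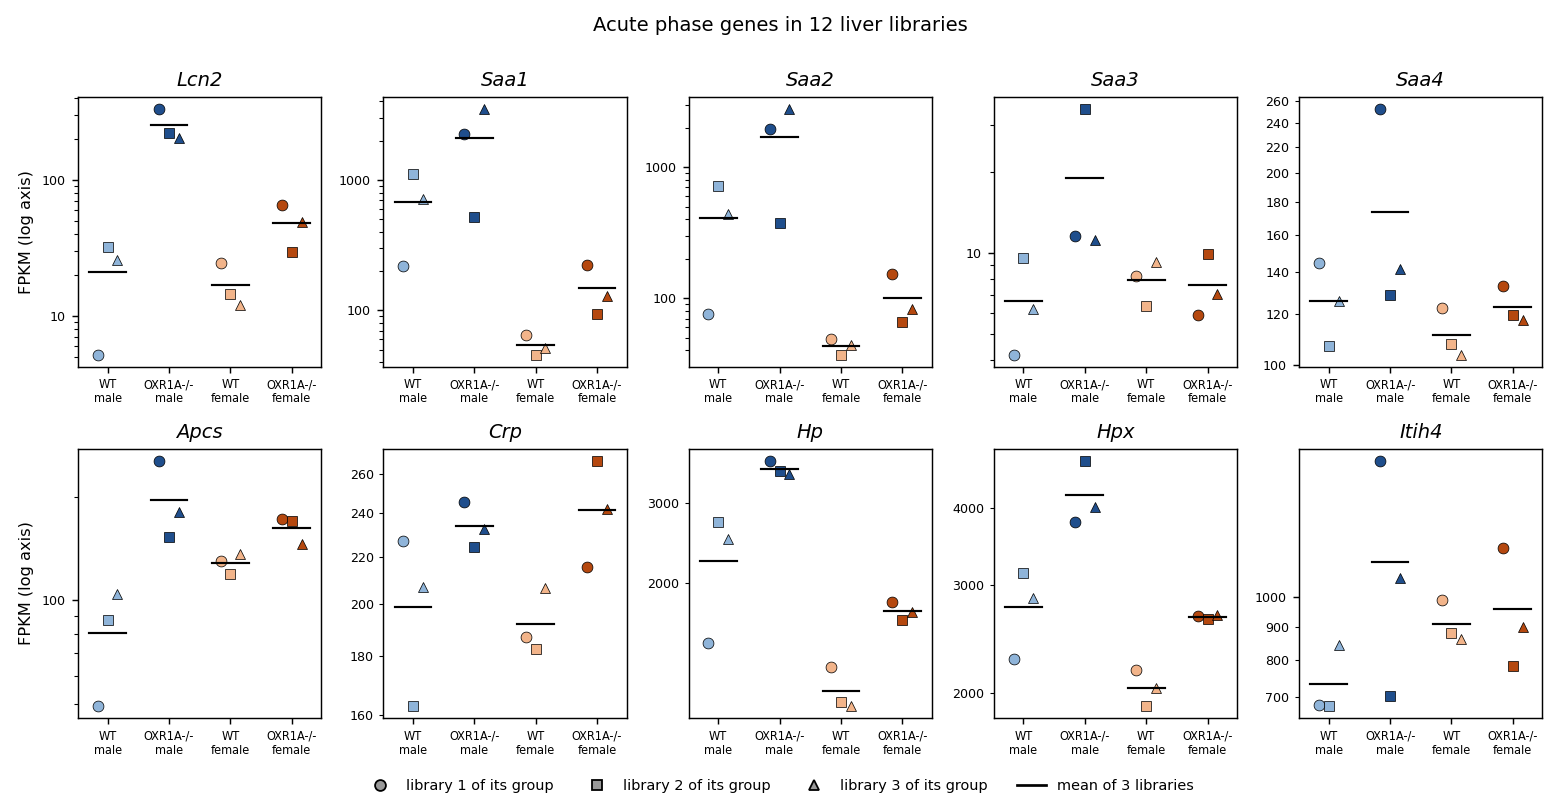
FPKM of the 10 genes on log axes, each panel with its own range, in wild-type (WT) and OXR1A-/- males and females; each point is a library and each bar the mean of 3. Lcn2 in OXR1A-/- males runs from 201.82 to 329.78 FPKM, above all 9 other libraries, while Saa1 and Saa2 are high in males of both genotypes.

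In males, the question was whether loss of OXR1A moved these genes. Lcn2, Apcs and Hpx were called higher in the OXR1A-/- livers and no gene of the group was called lower. Lcn2 stood far above the others, at 12.0 times its wild-type mean, against 2.44 times for Apcs and 1.52 times for Hpx. The 3 calls of 10 compare with 2.13% of all tested genes called higher in this comparison (2.55% called in either direction). Without overlap between the groups, 5 of the 10 were higher, as were 21.2% of all genes. All 10 changes were above 0, as were those of 78.8% of all genes, and their median was 0.99 on the log2 scale against 0.19 over all genes. With the libraries scaled by median ratio, which puts the median of all genes at 0.01, Lcn2 alone was called (limma adjusted p = 0.0141). The changes were then 3.59 for Lcn2, 1.08 for Apcs, 0.38 for Hpx and 0.02 for Crp. With a trend on transcript length removed in each library, Hp and Saa3 also passed (limma adjusted p = 0.0259 and 0.0356). Under that setting 7.72% of all genes were called in males, against 2.55% in the main fit. Saa3 also passed with array weights (limma adjusted p = 0.0325).

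Lcn2 was at 5.18, 31.86 and 25.60 FPKM in wild-type males 1 to 3 and at 329.78, 221.78 and 201.82 FPKM in OXR1A-/- males 1 to 3. The groups were far apart: the lowest OXR1A-/- library was above the highest wild-type one several-fold, and wild-type male 1 was the lowest of the 12 libraries. The log2 change was 3.81 (SE 0.54, limma adjusted p = 0.00917). Without wild-type male 1 it was 3.06 (adjusted p = 0.00666), and it was called whichever of the 12 libraries was left out (adjusted p from 0.00666 to 0.0366 in limma). A limma fit of the 2 male groups alone left it short of the threshold (adjusted p = 0.0877). By rank of FPKM within a library, Lcn2 went from place 1658 to 6207 in wild-type males to place 191 to 399 in OXR1A-/- males.

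The pentraxins split. Apcs stood at 49.18, 87.44 and 104.36 FPKM in wild-type males and at 254.74, 153.09 and 180.88 FPKM in OXR1A-/- males. Every OXR1A-/- library was above every wild-type one, with wild-type male 1 again the lowest and OXR1A-/- male 1 the highest. Its log2 change was 1.31 (SE 0.25, limma adjusted p = 0.0251). The call was lost without OXR1A-/- male 1 (adjusted p = 0.0643) and without the 3 libraries with other-sex RNA (adjusted p = 0.0871). Crp stood at 226.96, 162.83 and 206.93 FPKM in wild-type males and at 245.41, 224.40 and 232.62 FPKM in OXR1A-/- males. These groups overlapped, and the log2 change of 0.25 (limma adjusted p = 0.28) was near the median of all genes.

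The carriers of hemoglobin and heme were both higher without overlap. Hpx stood at 2272.87, 3133.25 and 2855.44 FPKM in wild-type males and at 3790.42, 4765.13 and 4015.45 FPKM in OXR1A-/- males. The log2 change of Hpx was 0.61 (SE 0.14, limma adjusted p = 0.0474), just inside the threshold, and it was lost in 10 of the 12 fits that left out 1 library (adjusted p up to 0.144) and without the 3 libraries with other-sex RNA (adjusted p = 0.125). Hp stood at 1481.65, 2727.62 and 2506.74 FPKM in wild-type males and at 3717.97, 3527.29 and 3482.45 FPKM in OXR1A-/- males. The OXR1A-/- values lay close together and above all wild-type ones, among which wild-type male 1 was low. Hp had a log2 change of 0.72 (SE 0.20, limma adjusted p = 0.0676) and did not pass.

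**Figure D2:**
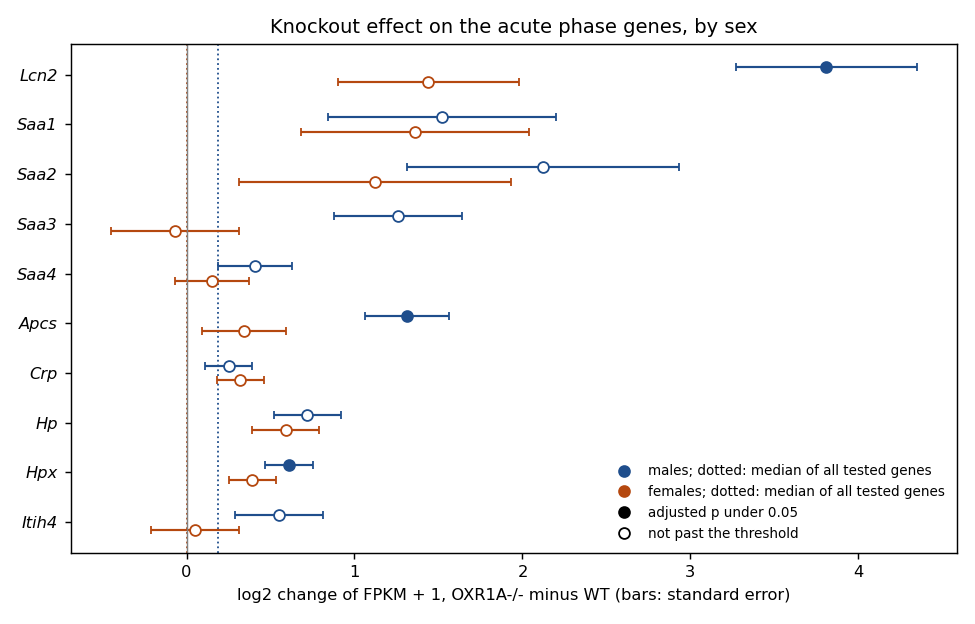
Log2 change of FPKM + 1 between OXR1A-/- and wild-type livers for the 10 genes, in males (blue) and females (orange), with bars of 1 standard error; filled points passed the test and dotted lines mark the median of all tested genes. Lcn2 is at 3.81 in males and 1.44 in females, and the long bars of Saa1 and Saa2 show the spread between libraries.

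Saa1 and Saa2 varied so much between male libraries that their mean differences did not pass. Saa1 was at 218.23, 1106.08 and 709.08 FPKM in wild-type males and at 2256.57, 517.80 and 3469.15 FPKM in OXR1A-/- males. Saa2 was at 75.91, 719.02 and 441.02 FPKM in wild-type males and at 1938.85, 376.17 and 2755.32 FPKM in OXR1A-/- males. For both genes OXR1A-/- males 1 and 3 were above every wild-type library, while OXR1A-/- male 2 lay within the wild-type range and wild-type male 1 was lowest. The log2 change was 1.52 for Saa1 (SE 0.68, limma adjusted p = 0.204) and 2.12 for Saa2 (SE 0.81, limma adjusted p = 0.146), with folds of 3.07 and 4.1. Leaving out OXR1A-/- male 2 gave 2.33 and 2.99 (limma adjusted p = 0.0996 for both genes), and leaving out wild-type male 1 gave 0.85 and 1.16 (limma adjusted p = 0.392 and 0.276).

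Saa3 did not follow Saa1 and Saa2 throughout. In wild-type males all 3 genes had the same order of libraries. In OXR1A-/- males, and also in OXR1A-/- females, the order of Saa3 was the reverse of that of Saa1 and Saa2. Saa3 stood at 4.19, 9.59 and 6.18 FPKM in wild-type males and at 11.63, 34.30 and 11.22 FPKM in OXR1A-/- males. The library lowest in Saa1 and Saa2 among the OXR1A-/- males was thus by far the highest in Saa3. The male groups did not overlap. The log2 change was 1.26 (SE 0.38, limma adjusted p = 0.089), and 0.76 (limma adjusted p = 0.234) without OXR1A-/- male 2. The same library stood out in genes of macrophages and Kupffer cells, the resident macrophages of the liver: 14 markers summed to 1091.6 FPKM there, against 438.9 and 588.6 in OXR1A-/- males 1 and 3 and 208.8 to 387.7 FPKM in wild-type males. This was not particular to macrophages. The library also had the highest male sums of stellate cell (223.0 FPKM), lymphocyte (22.5) and cytokine and chemokine genes (81.1). Its sum of neutrophil markers (16.5) was close to the highest male one, 16.7 in OXR1A-/- male 1. All 14 markers were measured above 1 FPKM in at least 1 library, and 6 of the 14 were called higher in OXR1A-/- males, among them Cd5l, Vsig4, Emr1 and Timd4. Of all tested genes, 2.13% were called higher there. The part of any of these cells or genes in the Saa3 values was not tested. In whole liver, more or fewer cells of a type and more or less RNA per cell cannot be told apart.

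**Figure D3:**
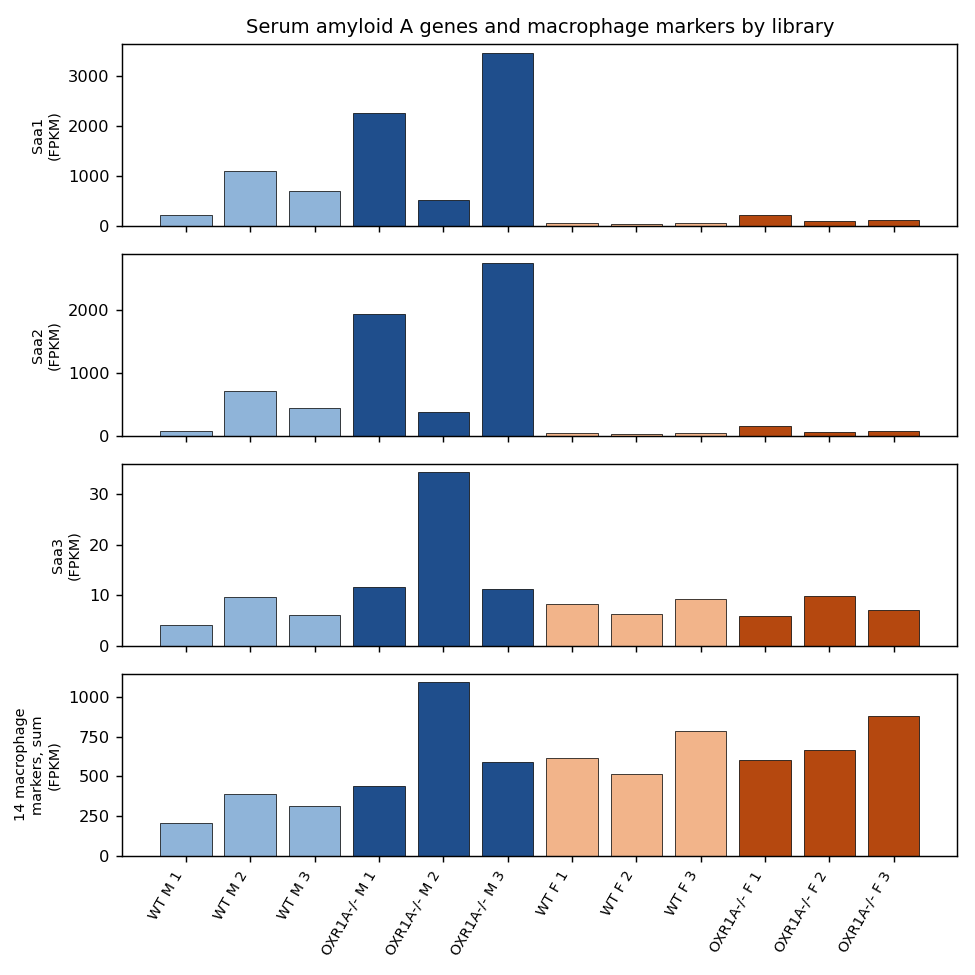
FPKM of Saa1, Saa2 and Saa3 and the summed FPKM of 14 macrophage and Kupffer cell markers in each of the 12 libraries (M male, F female; linear axes from 0). OXR1A-/- male 2 has 517.80 FPKM of Saa1, the least of its group, and the most Saa3 (34.30) and marker RNA (1091.6).

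Saa4, the constitutive serum amyloid A of the liver, and Itih4 were each highest in OXR1A-/- male 1. Saa4 stood at 144.35, 106.97 and 126.15 FPKM in wild-type males and at 252.15, 128.86 and 141.25 FPKM in OXR1A-/- males. Itih4 stood at 680.62, 678.30 and 841.56 FPKM in wild-type males and at 1622.86, 703.74 and 1070.21 FPKM in OXR1A-/- males. The groups overlapped for both genes and neither passed (log2 changes 0.41 and 0.55, limma adjusted p = 0.264 and 0.216). Without OXR1A-/- male 1 the changes were 0.11 and 0.25.

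In females no gene of the group passed the test. The 10 genes had 0 calls by limma, with 0.0174% of all genes called in females, and 4 of them (Lcn2, Hp, Hpx and Crp) had an unadjusted p under 0.05, as did 6.13% of all genes. Still, 7 of the 10 were higher in OXR1A-/- females without overlap between the groups, against 9.22% of all genes: Lcn2, Saa1, Saa2, Apcs, Crp, Hp and Hpx. The median change was 0.36 on the log2 scale, against 0 over all genes.

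Lcn2 stood at 24.56, 14.35 and 11.93 FPKM in wild-type females and at 65.69, 29.43 and 49.34 FPKM in OXR1A-/- females. The lowest OXR1A-/- value was above the highest wild-type value, the latter in wild-type female 1, and the fold of means was 2.84 (log2 change 1.44, SE 0.54, limma adjusted p = 0.78). Hp stood at 1306.58, 1093.83 and 1073.78 FPKM in wild-type females and at 1818.47, 1658.27 and 1729.22 FPKM in OXR1A-/- females. Its groups were well apart relative to their spread, and its log2 change was 0.59 (limma adjusted p = 0.714). Hpx stood at 2175.30, 1903.44 and 2039.50 FPKM in wild-type females and at 2665.30, 2639.43 and 2680.76 FPKM in OXR1A-/- females, with a log2 change of 0.39 (limma adjusted p = 0.78).

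Saa1 and Saa2, low in females, kept apart by genotype there. Saa1 stood at 64.52, 45.77 and 51.74 FPKM in wild-type females and at 222.56, 92.99 and 128.45 FPKM in OXR1A-/- females, a fold of 2.74 (log2 change 1.36, limma adjusted p = 0.833). Saa2 stood at 48.52, 37.21 and 44.35 FPKM in wild-type females and at 153.74, 66.50 and 83.12 FPKM in OXR1A-/- females, a fold of 2.33 (log2 change 1.12, limma adjusted p = 0.888). Both groups of each gene were in the same order, with OXR1A-/- female 1 highest. The pentraxins followed with smaller differences. Apcs stood at 130.20, 119.47 and 136.50 FPKM in wild-type and at 172.46, 170.40 and 145.72 FPKM in OXR1A-/- females (log2 change 0.34, limma adjusted p = 0.889), and Crp at 187.06, 182.72 and 206.62 against 215.41, 266.74 and 242.19 FPKM (log2 change 0.32, limma adjusted p = 0.791). Saa3, Saa4 and Itih4 overlapped between the female groups, with log2 changes of -0.07, 0.15 and 0.05. Saa3 stood at 8.21, 6.36 and 9.28 FPKM in wild-type females and at 5.90, 9.95 and 7.05 FPKM in OXR1A-/- females. It was highest in wild-type female 3, where Saa1 and Saa2 were highest in wild-type female 1. Among OXR1A-/- females it was lowest in female 1, the highest in Saa1 and Saa2. Macrophage marker sums also overlapped in females, at 514.6 to 783.8 FPKM in wild type and 600.7 to 877.8 FPKM in OXR1A-/- animals, with 0 of 14 called.

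Without overlap in either sex, 4 of the 10 genes were higher in OXR1A-/- livers, Lcn2, Apcs, Hp and Hpx, against 3.31% of all genes. The mean of the male and female effects, a comparison added after these values were seen, gave limma calls for the same 4 genes, with 1.09% of all genes called higher. The mean log2 changes were 2.63 for Lcn2 (limma adjusted p = 0.0107), 0.82 for Apcs (0.0479), 0.66 for Hp (0.0468) and 0.50 for Hpx (0.0444). Lcn2 kept its call whichever library was left out (limma adjusted p up to 0.0372). Apcs, Hp and Hpx each lost theirs in 10 of the 12 such fits, and no gene of the group was called without the 3 libraries with other-sex RNA.

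Whether the effect differed between the sexes was tested directly. None of the 10 genes passed by limma (0.0261% of all genes did), and 3 had an unadjusted p under 0.05, as did 9.03% of all genes: Lcn2, Apcs and Saa3. The log2 effect of Lcn2 was 2.37 larger in males than in females (SE 0.76, limma adjusted p = 0.504), that of Apcs 0.98 larger (SE 0.35, adjusted p = 0.54) and that of Saa3 1.33 larger (SE 0.54, adjusted p = 0.544). For Saa1, Crp, Hp and Hpx the sign of this difference turned under other settings, and for Saa4 it turned without OXR1A-/- male 1. A call in males beside none in females is not by itself a difference between the sexes.

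The sexes themselves differed most in Saa1 and Saa2. These comparisons use the same libraries as those of genotype. In wild type, Saa1, Saa2 and Hp were called higher in males, 3 of 10 genes where 2.31% of all genes were called higher and 13.4% were called in all. The fold of male over female means was 12.5 for Saa1 (log2 difference 3.35, limma adjusted p = 0.00944), 9.5 for Saa2 (2.72, adjusted p = 0.0472) and 1.93 for Hp (0.91, adjusted p = 0.0125). The lowest wild-type male value of Saa1, 218.23 FPKM, was above the highest wild-type female one, 64.52 FPKM. Saa1 kept its call whichever library was left out and without the 3 libraries with other-sex RNA (limma adjusted p = 0.032), Hp lost it without wild-type female 2 (limma adjusted p = 0.0542), and Saa2 lost it in 9 of the 12 fits. Without the 3 libraries with other-sex RNA, Saa2 and Hp lost theirs (limma adjusted p = 0.124 and 0.06). Apcs and Itih4 were lower in wild-type males without overlap, as were 34.1% of all genes, whose median difference was -0.21. The log2 difference of Apcs was -0.74 (limma adjusted p = 0.0698) and that of Itih4 was -0.31 (limma adjusted p = 0.403). Lcn2 did not separate the wild-type sexes (0.03, limma adjusted p = 0.973).

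In OXR1A-/- livers, Saa1, Saa2, Lcn2, Hp and Hpx were called higher in males, 5 of 10 genes where 1.67% of all genes were called higher (3.67% called). The fold was 16.7 for Saa2 (log2 difference 3.72, limma adjusted p = 0.0262), 14.1 for Saa1 (3.52, adjusted p = 0.0146) and 5.22 for Lcn2 (2.40, adjusted p = 0.0301). Hp was 2.06 times and Hpx 1.57 times as high in males (limma adjusted p = 0.0126 and 0.0272). Without the 3 libraries with other-sex RNA none of these calls remained, at log2 differences of 3.50, 3.29, 2.79, 1.10 and 0.68 for Saa2, Saa1, Lcn2, Hp and Hpx (limma adjusted p from 0.123 to 0.238). Males thus carried the highest Saa1 and Saa2 means in each genotype, and the order of the group means for both was wild-type females, OXR1A-/- females, wild-type males and OXR1A-/- males. Neighbours in that order overlapped in range except for the female pair.

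The orders of the other genes differed from this. Lcn2 means ran from 16.9 ± 6.70 FPKM (SD, n = 3) in wild-type females through 20.9 ± 14.0 in wild-type males and 48.2 ± 18.2 in OXR1A-/- females to 251.1 ± 68.8 in OXR1A-/- males, and only the last step was free of overlap. Hp and Hpx means followed the order of Saa1, with overlap only between OXR1A-/- females and wild-type males. Apcs was lowest in wild-type males (80.3 ± 28.3), followed without overlap by wild-type females (128.7 ± 8.61) and OXR1A-/- females (162.9 ± 14.9), and overlapped between the latter and OXR1A-/- males (196.2 ± 52.5). Saa3 stood apart only in OXR1A-/- males (19.1 ± 13.2), and the neighbouring ranges of Saa4 and Crp all overlapped.

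As a share of all FPKM in a library, the 10 genes took 0.91% to 1.37% in wild-type males and 1.96% to 2.74% in OXR1A-/- males. In females they took 0.82% to 0.93% in wild type and 1.01% to 1.23% in OXR1A-/- livers. Neither sex overlapped by genotype. Hpx and Hp were among the transcripts with the highest FPKM: Hpx ranked from place 9 to 23 and Hp from place 16 to 27 in OXR1A-/- males. The ratio of Saa1 to Saa2 lay between 1.16 and 1.55 in all groups but wild-type males, where it was 1.54 to 2.87, the highest in wild-type male 1. These ratios rest on a pair of transcripts whose reads are partly shared.

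Within groups, some of the 10 genes were alike in how each library deviated from its group mean. The values below are Pearson correlations over 12 libraries, most of whose spread comes from the 6 male ones, and are given as a description. Of the 12 libraries, wild-type male 1 deviated most in Lcn2 (-1.51 on the log2 scale), Saa2 (-1.92), Apcs (-0.63), Hp (-0.55) and Hpx (-0.26). It also deviated by -1.34 in Saa1, and the correlations were not repeated without it. The slope of a library's values on log2 transcript length ran from -0.215 (wild-type male 2) to 0.123 (OXR1A-/- male 1). Its part in these correlations was not tested. Saa1 and Saa2 moved together (0.99), as did Lcn2 and Hp (0.95), while Lcn2 reached 0.74 with Apcs, 0.72 with Saa2 and 0.67 with Saa1. Saa3 was nearest Hpx (0.81) and was at -0.37 with Saa1 and -0.71 with Itih4. Saa4 was nearest Itih4 (0.80), and Crp was at -0.71 with Lcn2. Over all 12 libraries and with the 10 genes themselves left out as partners, the genes most like Saa1 in log2(FPKM + 1) included Lrg1 (0.941) and Orm1 (0.912), both known as secreted acute phase glycoproteins, with St3gal3, Fam131c and Znrf1. Those most like Lcn2 were Arsg (0.915), Apoa4 (0.910), Wdr75, Chi3l1 and Smpd1. Saa3 was most like Nucb2 (0.921), Gm5150, Anxa5 (0.917), Anxa2 and Palm. The genes most like Apcs included Cyp4a14 (0.936), Terf2ip, Dap and Apon, and Hp was most like Yars (0.956), 9130409I23Rik, Lrg1 (0.937), 1110008P14Rik and Pgp. Each gene was set against all tested genes outside the 10, up to 5 of the most alike are named, and part of each likeness comes from the differences between the groups.

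Some other positive acute phase genes rose as well. Of 21 tested, 5 were called higher in OXR1A-/- males and none lower: the orosomucoids Orm2 and Orm3, the metal-binding metallothioneins Mt1 and Mt2, and Lbp, which carries bacterial lipopolysaccharide. The share called higher over all genes was 2.13%. Orm2 rose from 66.8 ± 4.34 to 249.8 ± 68.6 FPKM in males (log2 change 1.85, limma adjusted p = 0.00246) and from 21.5 ± 5.24 to 80.8 ± 13.8 FPKM in females (1.87, limma adjusted p = 0.0122), the one gene of all lists called in females. In females no gene of this list was called without wild-type female 2 or without any 1 of the OXR1A-/- females, nor without the 3 libraries with other-sex RNA or with the length trend removed. Orm3 rose in males from 3.53 ± 0.956 to 14.8 ± 2.74 FPKM (1.81, limma adjusted p = 0.00172). The Orm genes are related copies. Their transcripts were not compared here, so reads may be shared and their separate values are uncertain. Lbp was at 30.3 ± 4.04 and 51.5 ± 8.59 FPKM in males (limma adjusted p = 0.0462). The count of 5 in males ran from 2 (without wild-type male 1, 2 or 3 or OXR1A-/- male 1) to 7 (without OXR1A-/- male 3) with 1 library left out. It was 3 without OXR1A-/- male 2, wild-type female 1 or 2 or OXR1A-/- female 3. Under other settings it ran from 0 in a fit of the male groups alone to 8 with the length trend removed, with 2 under median-ratio scaling. With the length trend removed, 7.72% of all genes were called in males. The median of the 21 genes was 0.48 in males and 0.29 in females, and the 16 not called in males included Orm1 (1068.2 ± 189.4 and 1496.4 ± 296.5 FPKM).

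**Figure D4:**
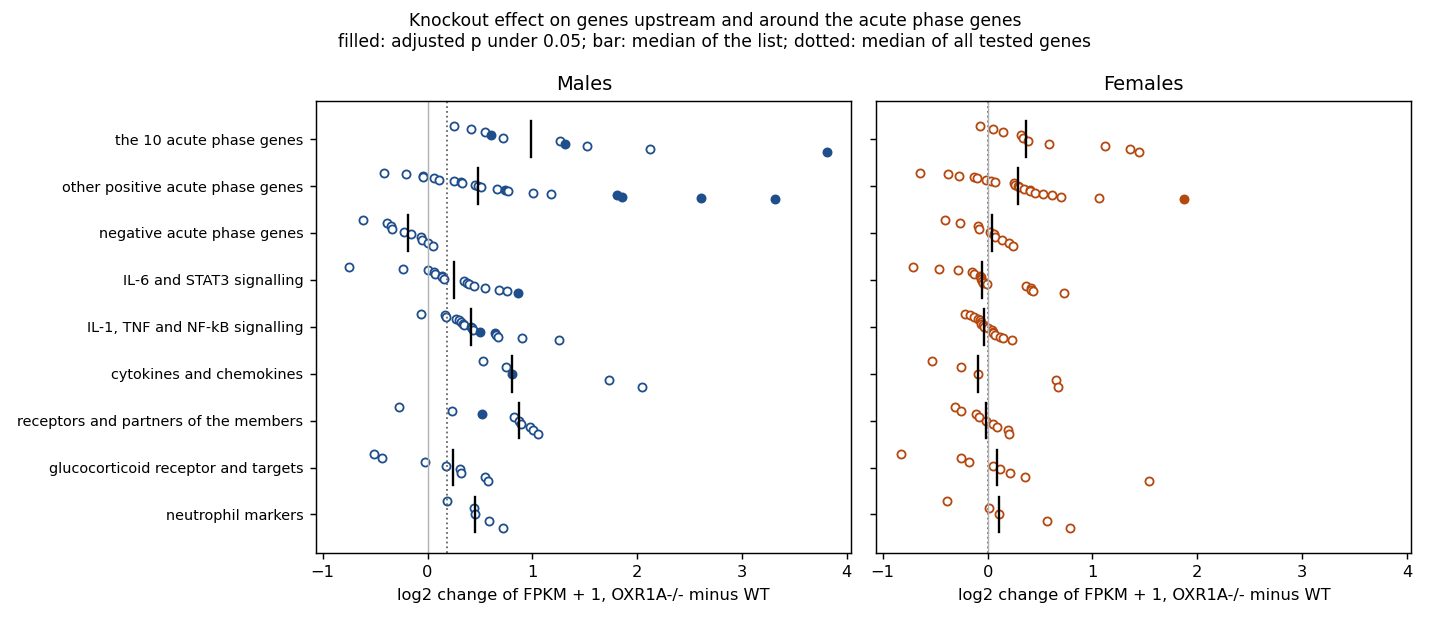
Log2 change of FPKM + 1 (OXR1A-/- minus wild type) of each tested gene among the 10 acute phase genes, other positive and negative acute phase genes, signalling, cytokine, receptor and glucocorticoid genes and neutrophil markers, in males and females; filled points passed the test, bars are list medians and the dotted line is the median of all tested genes. The 10 acute phase genes have medians of 0.99 in males and 0.36 in females, and other positive acute phase genes 0.48 and 0.29.

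None of the 10 negative acute phase genes was called in either sex. In males 8 of the 10 had values below 0, with a median of -0.19 while that of all genes was 0.19. Alb, the gene of albumin, was at 42195.2 ± 2322.0 FPKM in wild-type and 33284.5 ± 2170.2 in OXR1A-/- males without overlap (log2 change -0.34, limma adjusted p = 0.139). Apoa1, of high-density lipoprotein, had a log2 change of -0.62 (limma adjusted p = 0.107). In females the median was 0.04. Albumin is also one of the 10 hepatocyte markers, which together summed to 48952.6 to 51751.6 FPKM in OXR1A-/- males and 58631.0 to 66196.6 in wild-type males. None of those markers was called, and the part of this shift in the results was not tested.

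Some upstream signalling genes were called in males, to be read against the 2.13% of all genes called higher there and the median of 0.19. Of 16 genes of interleukin 6 and STAT3 signalling, Bcl3, a regulator of NF-kB, was the one called in males (9.23 ± 1.2 to 17.5 ± 2.14 FPKM, limma adjusted p = 0.0217), and the list median was 0.26. Socs3, a feedback target of STAT3, was at 3.25 ± 1.97 and 3.65 ± 1.86 FPKM in males and at 2.51 ± 1.5 and 4.59 ± 1.28 FPKM in females, and did not pass. Of 17 genes of interleukin 1, tumour necrosis factor and NF-kB signalling, Tnfrsf1a, a receptor of tumour necrosis factor, and the adaptor Myd88 were called higher in males (limma adjusted p = 0.0476 and 0.0477), with a list median of 0.41. No gene of either list was called in females, where the medians were -0.05 and -0.03.

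Among cytokines and chemokines, Il6, Lif, Osm, Il10 and Cxcl2 stayed under 1 FPKM in every library. Of the 5 that could be tested, Il1a was called in males (1.19 ± 0.355 to 2.83 ± 0.311 FPKM, limma adjusted p = 0.0484). Cxcl10, a chemokine induced by interferon, was at 42.26 FPKM in OXR1A-/- male 2 and at 3.57 and 2.51 FPKM in OXR1A-/- males 1 and 3. The wild-type males had 0.98 to 1.45 FPKM of Cxcl10, and the gene did not pass (limma adjusted p = 0.116). Of the receptors and partners of the 10 proteins, Slc22a17 and Lrp2, which bind lipocalin 2, and Mmp9, its partner in neutrophils, were under 1 FPKM throughout. Cd163, the haptoglobin scavenger receptor of macrophages, and Hmox1, which breaks down heme, did not pass in males (log2 changes 0.82 and 1.01, limma adjusted p = 0.0636 and 0.0649). Fcgr2b, an Fc receptor and also an endothelial marker here, was called at 0.52 (limma adjusted p = 0.0463), 1 of 9 tested. None of the 8 genes of the glucocorticoid receptor and its targets was called in either sex.

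Markers of other cells moved in males beside these genes. Besides the macrophage list, 6 of 10 markers of sinusoidal endothelium were called higher in OXR1A-/- males (sums 98.3 to 113.7 FPKM in wild type, 153.7 to 165.5 in OXR1A-/-), and 1 of 9 of stellate cells, Dcn (sums 94.5 to 113.7 and 141.9 to 223.0 FPKM). Over all genes 2.13% were called higher in this comparison, and 78.8% had changes above 0. Of the markers of neutrophils, a known source of lipocalin 2, Mpo, Elane, Camp, Retnlg and Mmp8 stayed under 1 FPKM everywhere. The 11 listed neutrophil markers summed to 6.7 to 11.3 FPKM in wild-type and 9.6 to 16.7 FPKM in OXR1A-/- males, and to 14.9 to 19.0 and 19.8 to 24.7 FPKM in the corresponding females. None of the 5 tested was called in either sex. Without overlap, 2 of the 5, S100a8 and Csf3r, were higher in OXR1A-/- males, as were 21.2% of all genes. In OXR1A-/- females 1 of the 5, S100a8, was higher without overlap, against 9.22% of all genes. Retnlg, too low to test, had at most 0.08 FPKM in wild-type males and 0.47 to 0.90 FPKM in OXR1A-/- males. Lymphocyte markers (0 of 6), cholangiocyte markers (0 of 4) and the fat cell marker tested (0 of 1) had no call, and the fat cell genes Adipoq, Plin1 and Retn were under 1 FPKM throughout. The part of neutrophil, macrophage, endothelial and stellate cell RNA in these results was not tested.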

How the data were processed

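Liver RNA of 12 libraries was compared in 4 groups of 3 set by genotype and sex. Per the labels' protocols, messenger RNA was isolated on oligo(dT) beads before reverse transcription with random primers. The deposited FPKM, rounded by the authors to 2 decimals, cover 18560 genes, of which 18502 matched RefSeq by Entrez number. TopHat2 and build mm10 are named per the submitters' processing notes, and for the quantifier and annotation the sources used here give none. Every column of sample values was used (0 left out).

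Depth was estimated from the step that 1 fragment makes in low FPKM values, with GENCODE M21 transcript lengths (18140 genes, 97.7%). Recovered values lay 0.106 to 0.135 of a fragment from a whole number on average, against 0.253 to 0.262 over the range of steps tried. The steps were chosen to make this distance small, so the depths are approximate and counting errors cover counting only. FPKM summed to 526203 to 667434 per library. At most 0.38% of values were identical between libraries, and all were kept as separate samples.

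The 11514 genes that reached 1 FPKM in 3 or more libraries entered limma 3.58.1 (R 4.3.3) as log2(FPKM + 1). The fit took all 12 libraries with a mean for each group and a variance trend, with two-sided tests and Benjamini-Hochberg adjustment over all of them, checked on simulated data. Alternatives were other pseudocounts (0.1), filters (none, or a mean of at least 5 FPKM), scalings, weights, fits of the groups compared, the replicate number as a block, removal of a trend on transcript length, and left-out libraries. The 10 genes and all lists were chosen with earlier results of these data known. All 10 genes are named, with Oxr1. Of each other list, up to 4 genes with the smallest p in either sex are named; genes under 1 FPKM throughout were named after their values were seen. Relations between genes are Pearson correlations given without a p, and 1 gene among those most like Apcs is not reported here.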

Additional observations from a re-analysis of the deposited data

How the results depend on the processing

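Of 902 refits of single genes in the comparisons of genotype and sex (38 results), 804 kept their direction and side of the threshold, 75 lost a call, 3 gained one and 20 changed sign. All 75 losses fell on the results called in the main fit: the 3 in males and the 3 and 5 of sex. The rest of the 38 results had no call to lose, so 75 of 902 understates how often calls were lost. The 3 calls among the 10 genes in males became 1 under median-ratio scaling, 1 under quantile normalization, 0 in a fit of the male groups alone, 5 with the length trend removed and 1 without the 3 libraries with other-sex RNA, and ran from 1 to 3 with single libraries left out (1 without OXR1A-/- male 1). With array weights the male count was 4. In females and for the difference between the sexes the count stayed at 0 in every refit. The 3 calls of sex in wild type became 5 with the length trend removed (4 higher, 1 lower) and 1 without the 3 libraries, and ran from 1 to 4 with 1 library left out (1 without wild-type female 2). The 5 calls of sex in OXR1A-/- livers became 2 without a filter, 2 in a fit of those groups alone and 0 without the 3 libraries, and ran from 1 to 5 with 1 library left out (1 without OXR1A-/- male 1, female 2 or female 3; 2 without male 3 or female 1; 3 without male 2). The 4 calls of the mean of both sexes became 1 without a filter, 1 under median-ratio scaling, 2 under quantile normalization and 0 without the 3 libraries, and ran from 1 to 4 with 1 library left out. The count for the mean of both sexes rose to 6 with array weights. It was 5 without both wild-type male 1 and OXR1A-/- male 2, a choice made after seeing the data. The cause of these changes was not tested.

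Same-numbered libraries did not vary together throughout (correlations of deviations from -0.32 to 0.56). With 3 libraries per group these correlations cannot show whether the numbers pair libraries, and the main fit did not use the numbers. With the replicate number as a block, limma called 1 of the 10 genes in males, 0 in females, 0 for the difference, 2 and 4 for sex in wild type and OXR1A-/- livers, and 1 for the mean of both sexes. Over all genes, the block took the male calls from 294 to 132, and under the other settings they ran from 3 (only the male groups) to 889 (length trend removed). Female calls ran from 0 to 33.

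Signs turned for values near 0. In females, Saa3 was 0.11 without the 3 libraries and ran from -0.25 to 0.08 with 1 library left out: 0.04 without wild-type female 3 and 0.08 without OXR1A-/- female 1, while Itih4 was -0.05 without the 3 libraries and ran from -0.11 (without OXR1A-/- female 1) to 0.19. The difference between the sexes turned for Saa1 to -0.07 (median ratio), -0.05 (array weights), -0.19 (without the 3 libraries) and -0.51, -0.09, -0.40 and -0.12 (without wild-type male 1, OXR1A-/- male 1, male 3 or female 2; up to 0.97 otherwise). It turned for Saa4 to -0.04 without OXR1A-/- male 1 (up to 0.44), and without wild-type male 1 for Crp to 0.02 (down to -0.21) and for Hp to -0.14 (up to 0.30). Hp was -0.10 and Hpx -0.01 under median ratio. Without both wild-type male 1 and OXR1A-/- male 2, chosen after seeing the data, Crp was 0.05, Hp -0.13 and Hpx -0.003. Depth limits Saa3 most, with an estimated 54 fragments at its lowest.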
